A study of Mus musculus with 20 samples.

Results

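Cholesterol synthesis enzymes were followed through neuronal differentiation of mouse ESD3 embryonic stem cells with and without knockdown of Hprt. The members were taken by gene symbol from a list of 8 enzymes, Hmgcs1, Idi1, Fdps, Fdft1, Sqle, Lss, Cyp51 and Dhcr7, and 7 of them were found among the 37561 genes shared by all tables. Hmgcs1 was not analysed here. All 7 were among the 13440 genes that passed the filter on low values, set at a log2 normalized count of 4, and all but Idi1 passed a stricter limit of 8. Both lines derived from ESD3 cells of strain 129s2/SvPas and were kept on mouse embryo fibroblast feeders. The control line expressed a short hairpin RNA against luciferase and the HPRT knockdown line a short hairpin RNA against HPRT, each delivered by a virus. Cells of both lines were grown as spherical neural masses (SNM) and differentiated toward dopaminergic neurons. Collections for RNA sequencing were daily up to day 4 and then every 2 days until day 14, with 1 library per line and day. The 20 libraries therefore hold 10 per line and no replicate within a day, and the RNAs of a time point had been pooled.

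Cholesterol is built from acetyl-CoA through mevalonate and isoprenoid units, which are joined to squalene, oxidized, closed into the sterol ring and trimmed. The genes of the pathway are classically switched on together by the transcription factor SREBP2 when the endoplasmic reticulum is low in sterol. Cells of the nervous system make nearly all of their own cholesterol, which goes into growing membranes, synapses and myelin. Idi1 encodes isopentenyl-diphosphate isomerase, and Fdps encodes farnesyl diphosphate synthase, whose product also feeds protein prenylation, ubiquinone and dolichol. Fdft1 encodes squalene synthase, the first enzyme committed to sterols. Sqle encodes squalene epoxidase, Lss lanosterol synthase, Cyp51 lanosterol demethylase and Dhcr7 a reductase at the end of the pathway.

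The stretches upstream of the starts of members are shown first, and their part in the values below was not tested. RefSeq promoters of build GRCm38.p6 were given for 5 of the 8 listed genes, and the 250 bases before the start are printed for 4 that have values here, 5′ to 3′ on the strand of the gene. Capitals mark matches on either strand to CCAAT, the box bound by NF-Y, and to GGGCGG, a GC box, motifs known to accompany sterol response elements in this pathway. Of the 3 starts listed for Dhcr7, the start that holds CCAAT was chosen after its letters were seen. Fdps, Fdft1 and Sqle are named only.
Idi1, chr13:8885356-8885605, plus strand: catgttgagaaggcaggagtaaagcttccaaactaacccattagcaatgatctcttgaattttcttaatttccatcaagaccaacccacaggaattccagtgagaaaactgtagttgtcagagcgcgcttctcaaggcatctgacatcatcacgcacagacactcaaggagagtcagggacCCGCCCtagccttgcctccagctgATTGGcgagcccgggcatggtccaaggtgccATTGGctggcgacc
Lss, chr10:76531355-76531604, plus strand: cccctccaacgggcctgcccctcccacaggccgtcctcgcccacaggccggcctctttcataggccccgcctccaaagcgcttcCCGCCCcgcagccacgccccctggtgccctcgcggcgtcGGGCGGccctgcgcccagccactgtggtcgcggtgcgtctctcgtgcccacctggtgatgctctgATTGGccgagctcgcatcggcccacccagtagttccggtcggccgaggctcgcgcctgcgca
Cyp51, chr5:4104698-4104947, minus strand: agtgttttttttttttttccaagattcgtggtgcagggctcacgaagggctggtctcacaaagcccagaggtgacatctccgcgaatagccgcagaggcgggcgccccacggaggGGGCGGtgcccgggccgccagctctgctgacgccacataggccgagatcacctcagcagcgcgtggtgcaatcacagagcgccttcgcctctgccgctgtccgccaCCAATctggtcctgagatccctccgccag
Dhcr7, chr7:143829964-143830213, plus strand: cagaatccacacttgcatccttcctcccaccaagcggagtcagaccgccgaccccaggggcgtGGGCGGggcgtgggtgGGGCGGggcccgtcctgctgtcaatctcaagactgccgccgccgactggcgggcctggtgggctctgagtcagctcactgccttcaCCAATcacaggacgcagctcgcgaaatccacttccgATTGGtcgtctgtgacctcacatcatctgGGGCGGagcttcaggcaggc

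CCAAT was found in 2 places for Idi1, in 1 for Lss, in 1 for Cyp51 and in 2 for Dhcr7, and no match overlapped a GC box. Over all 32851 RefSeq promoters of the same length, 33.8% held CCAAT and 32.7% held GGGCGG. The letters TCACNCCAC, a core form of the sterol response element, were in none of these 4 stretches and in 1.05% of all promoters. A match describes letters and not a bound site.

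Each value below is a log2 ratio of 2 libraries that the authors normalized together, so it gives a difference and no level, and the depth of each library is not given in the sources used here. The targeted gene, Hprt (Gene ID 15452, NCBIM37 chromosome X, 50341314 to 50374836), was reduced in knockdown cells on all 10 days, at 17.4% of the control on day 0 and between 3.12% and 15.3% afterwards. The median ratio over the 13440 genes lay between -0.029 and 0.016 on every day. Which lane a library ran in is not given in the sources used here. The libraries of a line are successive collections of that line and not independent cultures, so a test over days asks only whether a difference held through the course. In bulk RNA, fewer cells of a type and less RNA per cell cannot be told apart.

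The first comparison asked whether the lines differed within a day. On day 0, before differentiation, all 7 enzymes were lower in the knockdown library, with a median log2 ratio of -0.85. On day 10 all 7 were higher, with a median of 1.20, or 2.29-fold. On the other days the members scattered on both sides of the control, and their median ratio lay between -0.082 on day 4 and 0.32 on day 6.

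**Figure D1:**
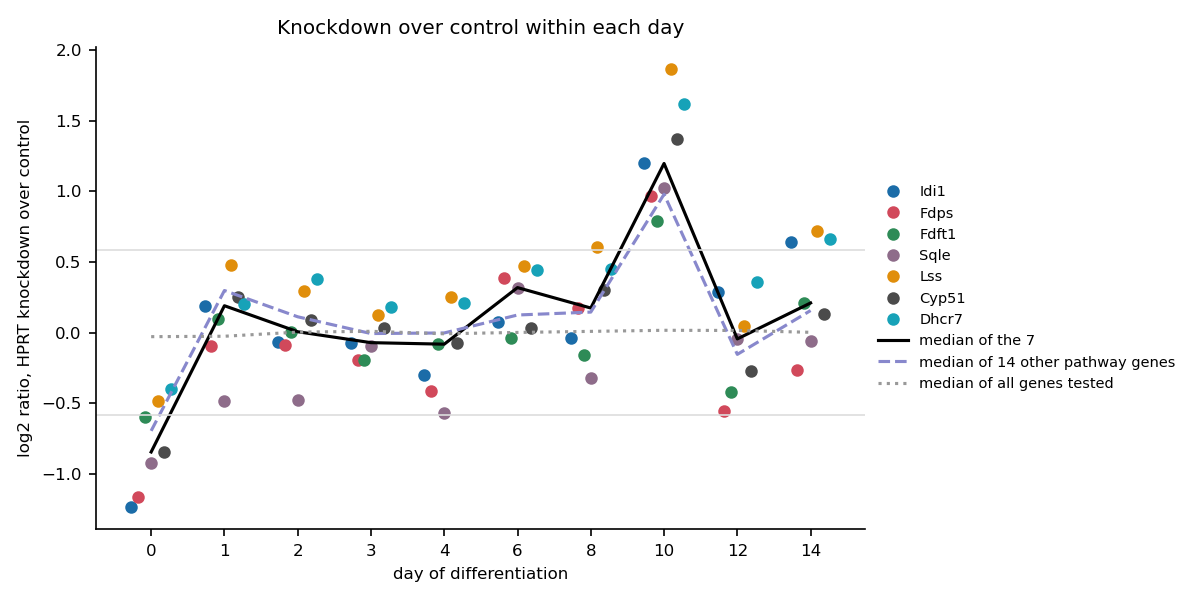
Log2 ratio of HPRT knockdown over control (y) on each of the 10 days (x), with 1 point per enzyme and lines for the median of the 7 enzymes, of 14 other genes of the pathway and of all genes tested. Grey lines mark 1.5-fold. The 7 points lie between -1.24 and -0.40 on day 0 and between 0.79 and 1.87 on day 10, while the median of all genes stays near 0.

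Idi1 (Gene ID 319554, NCBIM37 chromosome 13, 8884852 to 8891641, plus strand, 5 exons) showed the deepest deficit on day 0. Its log2 ratio was -1.24 (day 0), from -0.30 to 0.19 (days 1 to 4), 0.076 (day 6), -0.035 (day 8), 1.20 (day 10), 0.29 (day 12) and 0.64 (day 14). The knockdown library thus held 42.5% of the control transcript on day 0 and 229% on day 10. Fdps (Gene ID 110196, chromosome 3, 88897514 to 88905881, minus strand, 10 exons), the enzyme that follows it, had a log2 ratio of -1.16 (day 0), from -0.41 to -0.089 (days 1 to 4), 0.39 (day 6), 0.17 (day 8), 0.97 (day 10), -0.56 (day 12) and -0.26 (day 14). Fdps was higher in knockdown cells on days 6, 8 and 10 and lower on all other days.

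Fdft1 (Gene ID 14137, chromosome 14, 63763990 to 63796630, minus strand, 8 exons), which commits farnesyl units to squalene, had the narrowest range. Its log2 ratio was -0.60 (day 0), from -0.19 to 0.10 (days 1 to 4), -0.037 (day 6), -0.16 (day 8), 0.79 (day 10), -0.42 (day 12) and 0.21 (day 14). Sqle (Gene ID 20775, chromosome 15, 59146632 to 59162747, plus strand, 11 exons), which inserts oxygen into squalene, was the member most often lower in knockdown cells, on 8 of the 9 days other than day 6. Its log2 ratio was -0.93 (day 0), from -0.57 to -0.095 (days 1 to 4), 0.32 (day 6), -0.32 (day 8), 1.02 (day 10), -0.045 (day 12) and -0.059 (day 14).

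Lss (Gene ID 16987, chromosome 10, 75994333 to 76019883, plus strand, 22 exons), which closes the sterol ring, was higher in knockdown cells on every day but day 0. Its log2 ratio was -0.48 (day 0), from 0.12 to 0.48 (days 1 to 4), 0.47 (day 6), 0.61 (day 8), 1.87 (day 10), 0.049 (day 12) and 0.72 (day 14). The day 10 library held 364% of the control, the highest value among the 7 enzymes and 10 days. Cyp51 (Gene ID 13121, chromosome 5, 4081145 to 4104746, minus strand, 10 exons), which acts next, had a log2 ratio of -0.85 (day 0), from -0.075 to 0.25 (days 1 to 4), 0.033 (day 6), 0.30 (day 8), 1.37 (day 10), -0.27 (day 12) and 0.13 (day 14). Outside days 0 and 10, Cyp51 never left the range of 1.5-fold around the control, as was also so for Fdps, Fdft1 and Sqle. Dhcr7 (Gene ID 13360, chromosome 7, 151009050 to 151034315, plus strand, 9 exons) shared the pattern of Lss, with a log2 ratio of -0.40 (day 0), from 0.18 to 0.38 (days 1 to 4), 0.45 (day 6), 0.45 (day 8), 1.62 (day 10), 0.36 (day 12) and 0.66 (day 14).

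A difference of at least 1.5-fold within a day was counted with no test. On day 0 this held for 5 of the 7 enzymes in the direction of lower in knockdown cells, against 19.5% of all genes, and Lss and Dhcr7 fell short of it. Fdft1, at 1.51-fold lower, was only just among the 5. On day 10 it held for 7 of 7 in the direction of higher, against 19.1% of all genes. Both conditions together were met by 5 of 7 members and 1.93% of all genes. On day 8 Lss alone was at least 1.5-fold higher, against 18.1% of all genes, and on day 14 Idi1, Lss and Dhcr7 were, against 18.4%. No member reached 1.5-fold in either direction on days 1, 2, 3, 4, 6 and 12, where 45.6%, 34.5%, 35.4%, 35.2%, 26.1% and 35.9% of all genes did. Among the 9 days without day 6, each of the 7 enzymes had its lowest ratio on day 0 and its highest on day 10, as did 7.63% of all genes. This pattern was counted after the values were seen.

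Over the 9 days tested, no enzyme held a difference that passed the test. With limma and Benjamini-Hochberg adjustment across all genes, 0 of 7 members passed the threshold of 0.05, while 52.9% of all genes did. At an unadjusted p under 0.05 the count was 1 of 7 by limma, against 59.1% of all genes. Exact permutation of the signs of the daily ratios gave 1 of 7 unadjusted, against 56.8% of all genes. After adjustment it called 0 of 7, against 49.5%. The mean log2 ratio was 0.43 ± 0.64 (SD, n = 9 days) for Lss, with a limma 95% interval of -0.0041 to 0.87 and an adjusted p of 0.0873. For Dhcr7 it was 0.41 ± 0.54 (SD, n = 9 days), with an interval of 0.035 to 0.78 and a limma adjusted p of 0.0629. Means of the remaining members lay between -0.22 for Sqle and 0.11 for Cyp51, with standard deviations of 0.40 to 0.67 and limma adjusted p-values of 0.300 or more. Every member had at least 1 day on each side of 0, with Lss and Dhcr7 higher on 8 of 9 days and Sqle lower on 8 of 9.

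Some of these calls changed with the days and genes that entered the fit. With days 0 and 10 both left out, an alternative chosen after seeing the data, 3 of 7 members passed by limma, against 50.1% of all genes. Dhcr7 was then higher in knockdown cells at a mean log2 ratio of 0.35 (limma adjusted p = 0.00799), Lss was higher at 0.36 (limma adjusted p = 0.0174) and Sqle was lower at -0.29 (limma adjusted p = 0.0298). Over all alternatives the adjusted p ranged from 0.00799 to 0.116 for Dhcr7, from 0.0174 to 0.180 for Lss and from 0.0197 to 0.532 for Sqle. Dhcr7 also passed with day 6 kept (limma adjusted p = 0.0459) and with the stricter filter on low values (0.0486). Leaving out day 0 alone was enough for Dhcr7 (limma adjusted p = 0.0226) and Lss (0.0343), and leaving out day 10 alone for Sqle (0.0197). The 3 members that passed without days 0 and 10 include neighbouring enzymes, Sqle and Lss, with differences of opposite sign.

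**Figure D2:**
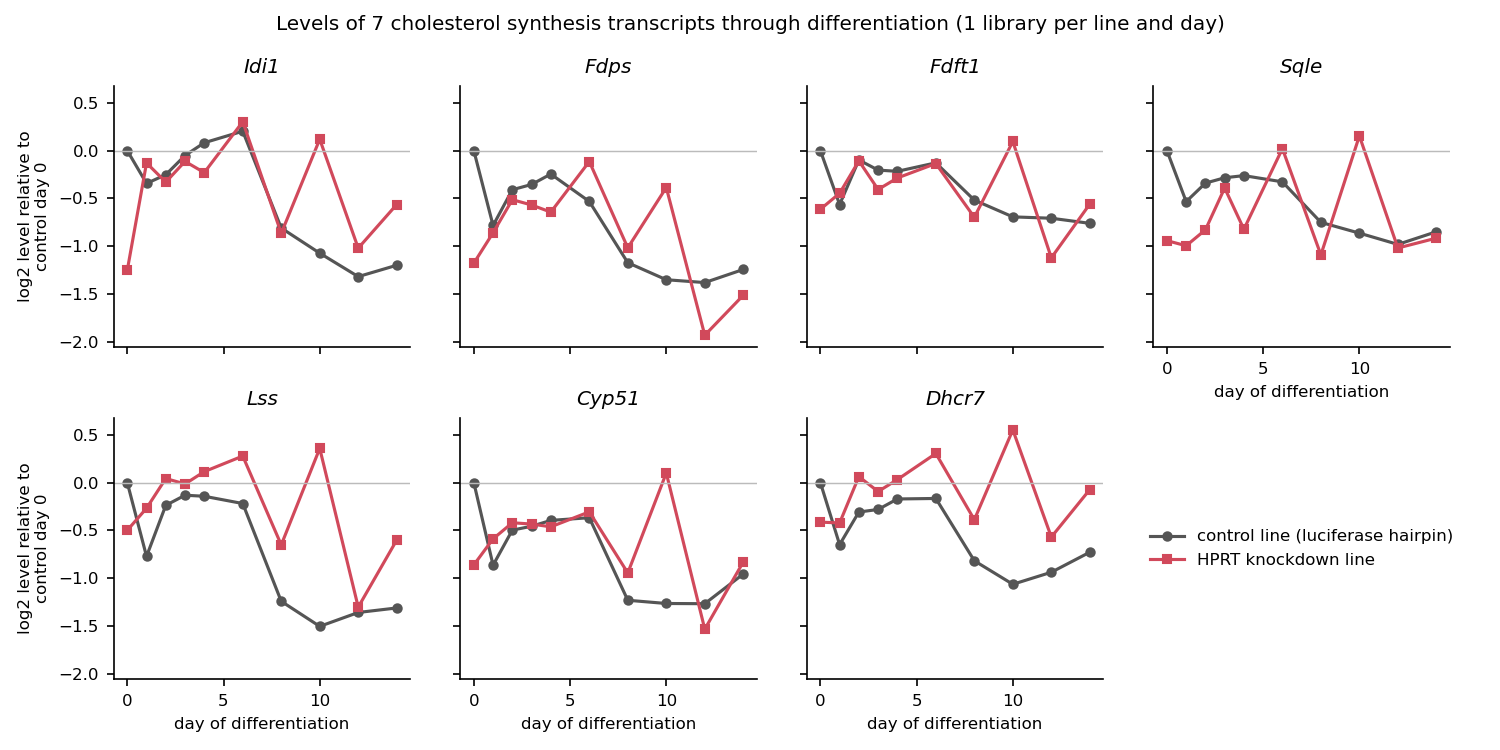
Log2 level relative to control day 0 (y) against the day of differentiation (x) for each of the 7 enzymes, in the control line (circles) and the HPRT knockdown line (squares), with levels joined over all tables by least squares and 1 library per point. The control course drops between day 6 and day 8 and stays low, and the knockdown course drops on day 8, returns on day 10 and drops again on day 12.

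The next question was how the enzymes changed as the control cells differentiated. All 7 fell in the control line. On day 14 the control library held between 40.7% (Lss) and 62.3% (Dhcr7) of its day 0 level, with steps of consecutive days added up. The lower values were reached in 2 stages, from day 0 to day 1 and from day 6 to day 8. The return between them was partial except for Idi1, which stood at 107% of its day 0 level on day 4 and 116% on day 6. The second stage starts from the day 6 library, a day the study set aside as discrepant. Single steps between days were counted with no test, since each compares 2 libraries.

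From day 0 to day 1 the control step was negative for all 7, with a median of -0.66 on the log2 scale, and 4 of 7 were lower by at least 1.5-fold, against 10.6% of all genes. Cyp51 had the largest step of the 7, -0.88, and Idi1 the smallest, -0.36. From day 1 to day 2 all 7 steps were positive, between 0.10 for Idi1 and 0.54 for Lss. From day 6 to day 8 all 7 were negative once more, with a median of -0.63, and 5 of 7 were lower by at least 1.5-fold, against 13.3% of all genes. Lss had the largest step here and Idi1 followed with -0.99, while Fdft1 had the smallest with -0.37. Later steps in the control line stayed small, between -0.26 and 0.32.

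The slope on day, fitted by limma to 9 days, was negative for all 7 enzymes in the control line and passed the threshold for 7 of 7, against 23.8% of all genes with a falling slope that passed. Lss had the steepest slope, at -0.10 ± 0.022 (limma standard error) log2 units per day with a limma adjusted p of 0.00569. Idi1 followed at -0.094 ± 0.016 (limma adjusted p = 0.00197), and Fdft1 had the shallowest at -0.047 ± 0.012 (limma adjusted p = 0.0144). Some of these calls rest on single days. Without day 0, day 10 or day 12 the count was 5 of 7, with Cyp51 and Dhcr7 no longer past the threshold, and without day 2, day 3 or day 8 it was 6 of 7, without Dhcr7.

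The knockdown line was then examined in the same way. Here 5 of 7 slopes on day were negative, with a median over the members of -0.020 log2 units per day, and the values swung between days. No slope passed the threshold (0 of 7 by limma, against 12.8% of all genes). At an unadjusted p under 0.05 the count was also 0 of 7, against 32.6% of all genes. Slopes lay between -0.051 for Fdps and 0.0080 for Sqle. For Fdps the limma 95% interval was -0.12 to 0.016, which includes its slope of -0.090 in the control line. The intervals of Fdft1, Lss and Cyp51 also included the control slope, and those of Idi1, Sqle and Dhcr7 did not. For Dhcr7 the interval was -0.048 to 0.059 around 0.0053, against -0.051 in the control line. Such an interval is no test of a difference between the lines.

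**Figure D3:**
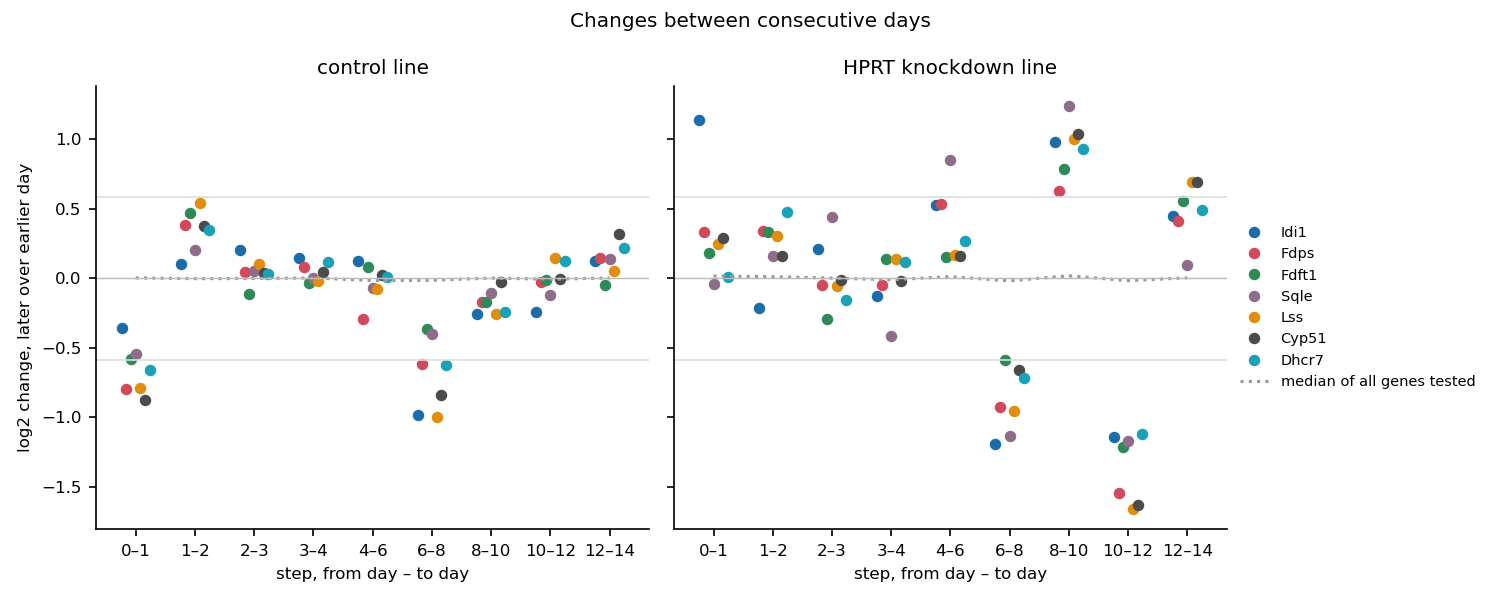
Log2 change of each of the 7 enzymes (y) from one collection day to the next (x), in the control line (left) and the HPRT knockdown line (right). Grey lines mark 1.5-fold and the dotted line the median of all genes tested. In the knockdown line all 7 steps are negative between days 6 and 8, positive between days 8 and 10 and negative between days 10 and 12.

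From day 6 to day 8 all 7 enzymes were lower in the knockdown line by at least 1.5-fold, with Fdft1 at the limit, against 15.6% of all genes. The log2 steps ran from -1.19 for Idi1 to -0.59 for Fdft1, with a median of -0.93. From day 8 to day 10 all 7 were higher by at least 1.5-fold, against 11.9% of all genes. Sqle had the largest log2 step, 1.24, followed by Cyp51 with 1.04 and Lss with 1.00, and Fdps had the smallest with 0.63. From day 10 to day 12 all 7 were lower again by at least 1.5-fold, against 9.29% of all genes. The log2 step was -1.66 for Lss, -1.63 for Cyp51 and -1.54 for Fdps, and smallest for Dhcr7 at -1.12. All 3 steps together, each past 1.5-fold, were met by 7 of 7 members and 0.454% of all genes, a pattern counted after the values were seen. The first of these steps starts from the day 6 library, a day the study set aside as discrepant, so this count depends on that library. The knockdown median of the members was 136% (day 4), 174% (day 6) and 95.4% (day 8) of its day 0 level. Both steps at day 10 and the ratio of day 10 share the knockdown library of that day and are not independent of each other.

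Relative to its own day 0, the knockdown line held 291% of Idi1 (day 6), 127% (day 8), 251% (day 10), 114% (day 12) and 155% (day 14). Cyp51, which follows lanosterol, stood at 150% (day 6), 94.7% (day 8), 195% (day 10), 62.8% (day 12) and 102% (day 14). For Sqle the values were 200% (day 6), 91.1% (day 8), 215% (day 10), 95.4% (day 12) and 102% (day 14). In the control line none of the 7 moved by 1.5-fold between days 8 and 10 or between days 10 and 12, and most genes did not either. Of all 13440 genes, 906 were higher and 456 lower by that size in the first of these control steps, and 576 and 291 in the second. The knockdown line had more such genes, 1601 higher and 1993 lower in the first step and 1282 and 1249 in the second. The day 6 libraries were left out of all tests because the study set that day aside as discrepant. From day 12 to day 14 all 7 steps were positive in the knockdown line, 2 of them, Lss and Cyp51, by at least 1.5-fold, against 9.81% of all genes.

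The first day of differentiation also went apart in the lines. While all 7 steps from day 0 to day 1 were negative in the control line, in the knockdown line 6 of 7 had a positive log2 step, from 0.0064 for Dhcr7 to 1.14 for Idi1, and Sqle had -0.039. The ratio at day 0 shares its libraries with these steps. The difference in time trend, the slope of the daily ratio on day, was positive for all 7 members. After adjustment by limma 0 of 7 passed, against 14.0% of all genes. An unadjusted p under 0.05 was found for 3 of 7, against 32.7% of all genes. Idi1 came nearest with 0.091 ± 0.032 (limma standard error) log2 units per day and a limma adjusted p of 0.0853, and Fdft1 was the least with 0.028 ± 0.026 (limma adjusted p = 0.492). A fall in the control line and its absence from the knockdown line are thus not shown to differ by this test.

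The members varied alike across libraries. Pearson correlations of the joined log2 levels over the 20 libraries, given as a description with no test, had a median of 0.84 over the 21 pairs of members. They ran from 0.64 for Dhcr7 and Sqle to 0.93 for Cyp51 and Lss. Against the mean of the members, the 5 most similar genes that are no member were Stard4, a carrier of sterol between membranes, at r = 0.96, Mvd, the decarboxylase that makes isopentenyl diphosphate, at 0.96, Sc4mol, the sterol methyl oxidase now called Msmo1, at 0.96, Aacs, which makes acetoacetyl-CoA from ketone bodies for lipid synthesis, at 0.95, and Nsdhl, the sterol dehydrogenase that follows Sc4mol, at 0.94. All 20 points share libraries, and the 2 lines share a culture scheme. Their log2 ratios were -0.96 to -0.69 on day 0 and 1.16 to 1.51 on day 10, a likeness that the choice over the same libraries sets.

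**Figure D4:**
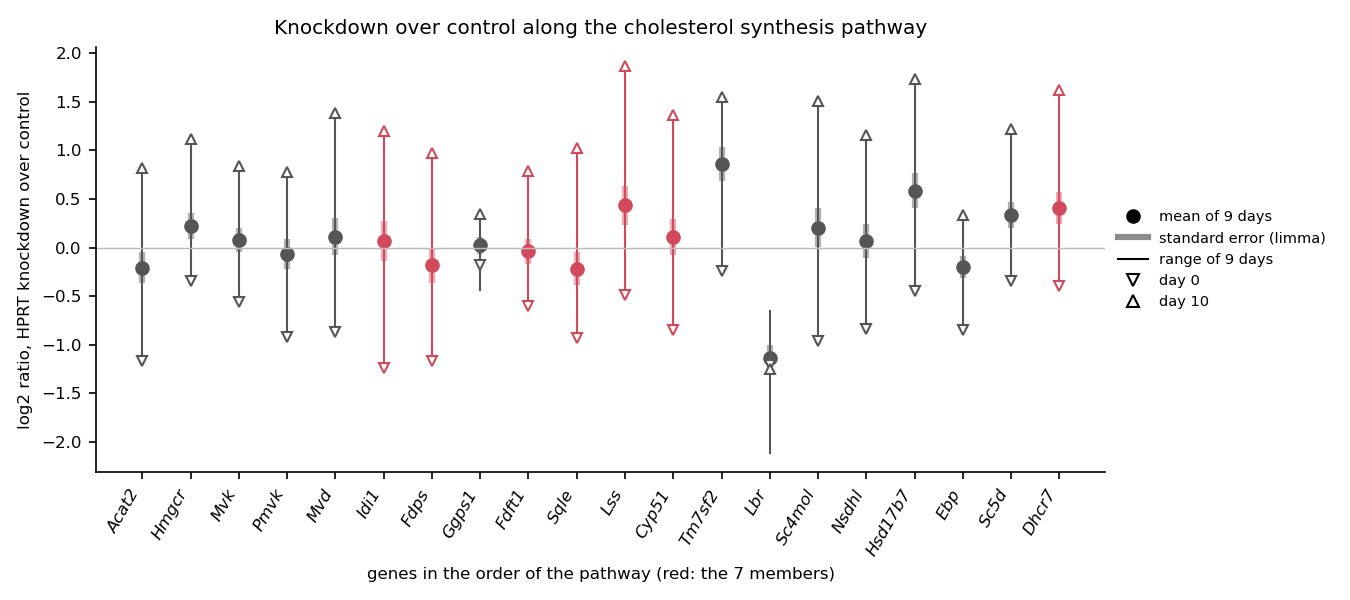
Log2 ratio of HPRT knockdown over control (y) for the 7 enzymes and 13 other genes of cholesterol synthesis in the order of the pathway (x), with the mean of 9 days (filled points), its limma standard error (thick bars), the range of the 9 days (thin lines) and the values of day 0 and day 10 (triangles). Day 0 is the low end and day 10 the high end for the 7 enzymes in red, and Lbr lies below 0 throughout.

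The other 14 genes of the pathway shared the low ratio of day 0, and most shared the high ratio of day 10. On day 0 all 14 were lower in the knockdown library, with a median log2 ratio of -0.70, and 7 were at least 1.5-fold lower, against 19.5% of all genes. On day 10, 13 of 14 were higher, with a median of 0.98, and 10 were at least 1.5-fold higher, against 19.1% of all genes. Of the 14, 11 had their lowest ratio on day 0 and their highest on day 10, against 7.63% of all genes. The 3 knockdown steps around days 8 and 10, each past 1.5-fold, were met by 6 of the 14, against 7 of 7 members and 0.454% of all genes. Over the 9 days, 2 passed the limma test as higher, 1 as lower and 11 did not pass, against 52.9% of all genes called, and the median of the 14 means was 0.072 against 0.0062 for all genes. Both enzymes for the reduction of the sterol after Cyp51 were among those that passed, in opposite directions. Tm7sf2, the dedicated sterol reductase, was higher at a mean log2 ratio of 0.86 ± 0.56 (SD, n = 9 days, limma adjusted p = 0.00233). Lbr, the lamin B receptor of the nuclear envelope that carries the same activity, was lower on all 9 days at -1.14 ± 0.43 (limma adjusted p = 0.000168). Hsd17b7, the ketosteroid reductase of the demethylation complex, was higher at 0.59 ± 0.57 (limma adjusted p = 0.0186). In the control line 11 of the 14 fell with time, against 23.8% of all genes, 1 rose and 2 did not pass. In the knockdown line 0 fell, 1 rose and 13 did not pass, against 12.8% of all genes called in either direction.

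Genes that sense or take up sterol were counted in the same test, in which 52.9% of all genes passed in either direction, so that a count near that share is no result about a list. Of 12 genes, 6 were higher, 2 lower and 4 did not pass in the limma test over 9 days, and the median of their means was 0.29. Scap, which escorts SREBP to the Golgi, was higher every day tested, with a mean log2 ratio of 0.69 ± 0.12 (SD, n = 9 days, limma adjusted p = 3.87e-05). Npc1, which exports cholesterol from lysosomes, was higher on 9 of 9 days at 0.88 ± 0.24, and Insig2, which holds SCAP in the endoplasmic reticulum, at 0.49 ± 0.20. Insig1, itself a target of SREBP, was higher at 0.53 ± 0.56 (limma adjusted p = 0.0270), with -0.45 on day 0 and 1.56 on day 10 as in the enzymes. Lrp1, an endocytic receptor for lipoproteins, was higher at 0.53 ± 0.62 (limma adjusted p = 0.0381). Srebf2, which encodes SREBP2 and was singled out after its values were seen, was lower at -0.31 ± 0.33 (limma adjusted p = 0.0376), and without day 0 its adjusted p was 0.0699, as that of Lrp1 was 0.0657.

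Of 12 genes for export, oxidation and esterification of sterol 10 passed the filter, 7 of which were higher, 0 lower and 3 not passing by limma, against 52.9% of all genes called in either direction, with a median of 0.69. Apoe, the lipoprotein of glia, was higher every day tested, with a mean of 2.05 ± 0.74 (limma adjusted p = 0.000116). Lcat, which esterifies cholesterol on lipoproteins, was higher on 9 of 9 days at 2.03 ± 0.73. Abca1, the transporter that loads cholesterol onto apolipoproteins, was higher on 9 of 9 days at 1.52 ± 0.49. Cyp46a1, the 24-hydroxylase of neurons, at 0.94 ± 0.56, Abcg4, an exporter of the brain, at 0.74 ± 0.43, and Soat1, which stores sterol as esters, at 0.65 ± 0.23, were higher on 9 of 9 days as well. Values of Soat1 for the same library differed between tables by up to 0.23.

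Of 11 genes for fatty acid synthesis, 7 were higher, 1 lower and 3 did not pass by limma, against 52.9% of all genes called, with a median of 0.60. The desaturases Scd1 at 1.07 ± 0.93, Scd2 at 0.99 ± 0.60 and Fads2 at 0.82 ± 0.34 were higher, as were malic enzyme Me1 at 1.10 ± 0.38 and Srebf1, the SREBP gene of fatty acid synthesis, at 0.69 ± 0.26. Acly, which makes cytosolic acetyl-CoA for sterols and fatty acids alike, was lower every day tested, with a mean of -1.01 ± 0.17 (SD, n = 9 days, limma adjusted p = 1.34e-05). Of 8 genes on the branches of farnesyl diphosphate, 1 was higher, 3 lower and 4 did not pass, a share close to the 52.9% called among all genes. Pdss1, which builds the tail of ubiquinone, was lower at -0.56 ± 0.40, Pdss2, its partner, at -0.37 ± 0.24 and Fntb, the beta subunit of farnesyltransferase, at -0.27 ± 0.27, with a limma adjusted p of 0.0348 that was 0.0629 without day 0. Pggt1b, a subunit of the enzyme that attaches geranylgeranyl groups, was higher at 0.33 ± 0.18. Its values for the same library differed by up to 0.18 with the pair of libraries normalized together. Dhdds, for dolichol, and Fnta, the alpha subunit of farnesyltransferase, had rising ratios, with slopes of 0.072 and 0.089 log2 units per day (limma adjusted p = 0.0241 and 0.0182).

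Markers of other cell types also differed between the lines, on these days and on others. The 12 oligodendrocyte and myelin markers had a median log2 ratio of -1.18 on day 0, with 10 of 12 lower in knockdown cells, and of 5.10 on day 10, with 12 of 12 higher. In the knockdown line their median log2 step was 2.37 from day 8 to day 10 and -0.46 from day 10 to day 12, while all 12 remained higher than the control on days 12 and 14, with medians of 3.87 and 5.21. On day 3, when no enzyme differed by 1.5-fold, the myelin median was 3.33 with 12 of 12 at least 1.5-fold higher, against 2663 of all 13440 genes. The median knockdown step of these markers from day 3 to day 4 was -3.92. Over the 9 days 4 of the 12 were higher by limma, 0 lower and 8 did not pass, against 52.9% of all genes called. From day 6 to day 8, when all 7 enzymes had negative steps in the knockdown line, the myelin median step was 0.30 and that of the pluripotent cell markers 0.46. The 8 proliferation markers had a median of -1.13 in that step, with 8 of 8 at least 1.5-fold lower, against 15.6% of all genes. Their median knockdown step was -0.40 from day 8 to day 10 and -0.96 from day 10 to day 12. The 8 pluripotent cell markers had median steps of -4.05 in the knockdown line from day 8 to day 10 and 2.94 from day 10 to day 12, the opposite directions from the enzymes, and their median ratio was -1.05 on day 0, -8.13 on day 1 and -4.94 on day 10. On day 1, where that ratio was lowest, no enzyme differed by 1.5-fold.

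The other marker lists are given for the same days. The 8 proliferation markers had a median log2 ratio of -1.10 on day 0 and -0.41 on day 10, and over the 9 days 7 of 8 were lower in knockdown cells by limma, a test that called 52.9% of all genes, here and in the lists that follow. The 8 astrocyte and radial glia markers were at 1.20 and 0.43, with 6 higher and 1 lower by limma. Neuronal markers, of which 8 of 10 passed the filter, were at -0.42 and -2.38, with 6 lower, and the 8 fibroblast markers at 0.40 and -1.24, with 2 lower. The 8 neural progenitor markers were at 0.18 and -0.53, with 2 higher and 2 lower. No marker found in the tables was listed at 0 in all same-day tables, and levels summed over a list could not be formed from ratios. The part of these cell types in the values of the enzymes was not tested.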

How the data were processed

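RNA from 20 libraries, 1 per line and day, was sequenced by the authors, with CASAVA 1.8.2 named in their processing notes and alignment to mouse build NCBI37. The authors deposited log2 values of 2 libraries normalized with DESeq and centred on their mean, in 28 tables normalized separately, with counts of at most 1 entered as 0. The difference of the columns is the log2 ratio used here. No counts could be recovered, so the depth of each library and its counting error are unknown. Levels were placed in classes from the rounding step of the values, and genes with a log2 normalized count of at least 4 were kept. Daily ratios and slopes on day were tested with limma 3.58.1 in R 4.3.3 (Benjamini-Hochberg, threshold 0.05), pairing libraries by day and leaving out day 6. Scripts were tested on simulated data. The members and gene lists were chosen with earlier results of these data known. Beside the members and the 5 genes most like them, genes were named where they passed the limma test of the ratio or of its trend, at most 6 a list, largest first. Some genes of the lists enter the counts and are not reported here by name. No column went unmapped. The virus was a retrovirus per the labels and a lentivirus in the methods.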

Additional observations from a re-analysis of the deposited data

Results flagged for a closer look

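For 3 of the 7 enzymes, day 10 stood apart from the other 9 days in the log2 ratio of knockdown over control. The gap between day 10 and its nearest neighbour, divided by the range of the 10 days, was 0.489 for Lss (log2 ratio 1.87), 0.481 for Cyp51 (1.37) and 0.474 for Dhcr7 (1.62), each above Dixon's 95% critical value for 10 values. In all, 21 series of 10 days were examined, of which chance flags about 1 in 20, and all 3 share the knockdown library of day 10.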

How the results depend on the processing

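Across alternatives, 105 of 118 values of the members for knockdown minus control kept their direction and side of the threshold, as did 102 of 111 control slopes, 96 of 104 knockdown slopes and 101 of 104 differences in slope. The cause of each change was not tested. For knockdown minus control, the count of members was 1 with day 6 kept, 1 at a log2 normalized count of at least 8, 3 without days 0 and 10, and 0 to 2 leaving out 1 day at a time. Pairing by day was checked by the correlation of deviations across genes, which was 0.14 to 0.43 on 8 of 9 days and 0.0014 on day 0, and with no replicate block 0 members and 5691 genes passed, against 7108 with the pairing. Leaving out 1 day gave 5 to 7 members for the control slope. Genes called for the difference in trend numbered 1888, and 1057 with day 6 kept, 548 without days 0 and 10 and 603 to 1656 leaving out 1 day. The control slope called 5828 genes, 3826 on log2(day + 1) and 4522 to 6176 leaving out 1 day, and the knockdown slope 1716, 136 and 208 to 2905. The control table of days 3 and 4 did not close with the others, and with the knockdown tables in its place, an alternative chosen after seeing the data, 7 of 7 members and 5673 genes passed. Signs turned only in values that did not pass. Leaving out 1 day, the mean ratio ran from -0.048 (without day 10) to 0.23 for Cyp51, from -0.14 to 0.031 (without day 0, and 0.0087 without day 12) for Fdft1, and from -0.074 (without day 10, and -0.0047 without day 14) to 0.23 for Idi1. Without days 0 and 10 the difference in slope became -0.011 for Cyp51, -0.0049 for Fdft1 and -0.015 for Fdps. The knockdown slope ran from -0.047 to 0.0021 for Cyp51, from -0.035 to 0.0020 for Fdft1 and from -0.045 to 0.0068 for Idi1, each positive without day 12, and was 0.023 for Idi1 on log2(day + 1). It ran from -0.010 (without day 10, and -0.0035 and -0.0015 without days 0 and 1) to 0.024 for Dhcr7, and was -0.013 for Sqle without day 10. The unknown depth of each library and the single library per day limit all values.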
